A study of Mus musculus with 6 samples.

Results

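The transcripts of 6 Ets factors were followed through 2 states of mouse pluripotent cells and 3 treatments. Etv1, Etv4 and Etv5 form the PEA3 subfamily, and Ets1, Ets2 and Elk3 belong to other branches of the same family. Probes were taken by symbol, as all those whose platform gene symbol was exactly one of these names. This gave 8 probes for 6 of 22180 genes, with log2 intensities averaged per symbol. The names were chosen with earlier results of these data known. Shares of all genes printed beside counts of the factors are therefore no test of the factors. Epiblast-like cells (EpiLC, which resemble epiblast just after implantation) came from mouse embryonic stem cells (mESC) of the EB3 line, after 2 days in N2B27 medium with bFGF at 12 ng/ml and Activin A at 20 ng/ml. The mESC themselves grew in N2B27 medium with LIF and BMP4, so the ligand bFGF was added to EpiLC alone. In each state, 1 culture had 3 µM CHIR99021 (CHIR, which inhibits GSK3 and so stabilises beta-catenin) together with 1 µM PD0325901 (PD, which blocks ERK1/2 activation by inhibiting MEK) for 24 hours, 1 had 3 µM CHIR for 24 hours, and 1 had neither. PD was never given alone, all cultures came from 1 cell line, and each of the 6 groups was 1 array, so a difference between 2 arrays has no error and no p-value.

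Ets factors bind DNA through a conserved Ets domain that recognises a GGAA core. FGF receptors signal through Ras, Raf, MEK and ERK, and in many tissues the PEA3 genes are transcribed where this signal is active, so that their transcripts are widely used as readouts of FGF and ERK activity. The repressor Capicua holds PEA3 genes down until ERK signalling inactivates it, and the ubiquitin ligase COP1 removes PEA3 proteins from the cell. Ets1 and Ets2 are themselves phosphorylated by ERK, and Elk3 is a ternary complex factor that binds DNA with serum response factor and acts as a repressor unless phosphorylated.

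The promoter windows of Etv5 are shown because Etv5 was one of the genes lowest under PD. Its windows also differ in a shortened form of a motif of the ERK-regulated repressor Capicua. RefSeq (build GRCm38.p6) lists 2 start sites for Etv5, and each window runs from 250 bases before to 50 bases after the start, on the minus strand of chromosome 16. The first is chr16:22439521-22439820 and the second chr16:22438319-22438618. Capitals mark the Capicua core searched on both strands, TGAATGA or TGAATGG.
Etv5 first start: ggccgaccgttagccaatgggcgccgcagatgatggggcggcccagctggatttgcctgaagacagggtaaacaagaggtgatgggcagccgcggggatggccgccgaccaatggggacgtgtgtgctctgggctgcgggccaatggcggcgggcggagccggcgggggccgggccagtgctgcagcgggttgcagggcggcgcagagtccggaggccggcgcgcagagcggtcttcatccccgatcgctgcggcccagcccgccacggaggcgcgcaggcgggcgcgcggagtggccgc
Etv5 second start: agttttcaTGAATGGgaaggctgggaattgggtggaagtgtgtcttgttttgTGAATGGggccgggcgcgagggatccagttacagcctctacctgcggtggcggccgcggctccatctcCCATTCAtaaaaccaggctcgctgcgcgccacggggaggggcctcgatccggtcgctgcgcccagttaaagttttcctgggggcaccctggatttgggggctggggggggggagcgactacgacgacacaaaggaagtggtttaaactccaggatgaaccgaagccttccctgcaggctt
The second window held 3 copies of the core, beginning at -242, -198 and -130 relative to the start, and the first window held 0. One or more copies were present in 7.1% of 32851 promoter windows of the same length, and 3 or more in 0.0883% of them (29 windows). The longer form of the core with an A after it was in 0 of the 2 Etv5 windows and in 2.47% of all windows. None of the 3 marked copies therefore held the longer form, and the shares above are those of the shortened core. The copy at -242 shares its last base with a GGAA Ets core, a motif that was present in 96% of all windows. The 2 windows of Etv1 and the single windows of Ets2 and Elk3 held 0 Capicua cores, and the table used here has no entry for Etv4 and Ets1. A match is a description of letters in a window and shows no binding. The Etv5 windows were chosen partly for these matches, so the shares over all windows are no test of them. A link of the matches to the low values under PD was not tested.

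The labelled states carried their defining markers in the untreated pair, less so under the inhibitors. Of 9 naive stem cell markers 8 fell in EpiLC over the 3 treatments in the limma fit, and of 6 EpiLC markers 3 rose (Pou3f1, Sall2 and Wnt8a), with Fgf5 at 1258.5 in untreated EpiLC and 36.0 in untreated mESC. In EpiLC with CHIR and PD, however, Fgf5 was at 39.4, and 5 of the 6 EpiLC markers were at least 2-fold lower than in untreated EpiLC. Naive markers summed to 3432 with CHIR and PD, 1030.1 with CHIR and 1388 without treatment in EpiLC, and to 13004, 11092 and 9898 in the same order in mESC. The EpiLC culture with CHIR stood apart by its primitive streak and mesoderm markers, whose 9 measured genes summed to 17217 there and to between 522 and 1365 on the other arrays. Summed levels over the 6 arrays lay between 600 and 995 for 11 endothelial and blood markers, between 681 and 1565 for 10 fibroblast markers, between 1140 and 4740 for 9 trophoblast markers and between 538 and 1605 for 7 primitive endoderm markers. In such bulk RNA, fewer cells of a type and less RNA per cell cannot be told apart. Values in the text are deposited linear intensities, with a lowest value of 16 in the table and array medians between 60.5 and 65.2 over all probes. Each factor was compared with itself across arrays, because levels of different probes are not comparable. The marker sums add linear values of different probes, so bright genes weigh most in them.

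**Figure D1:**
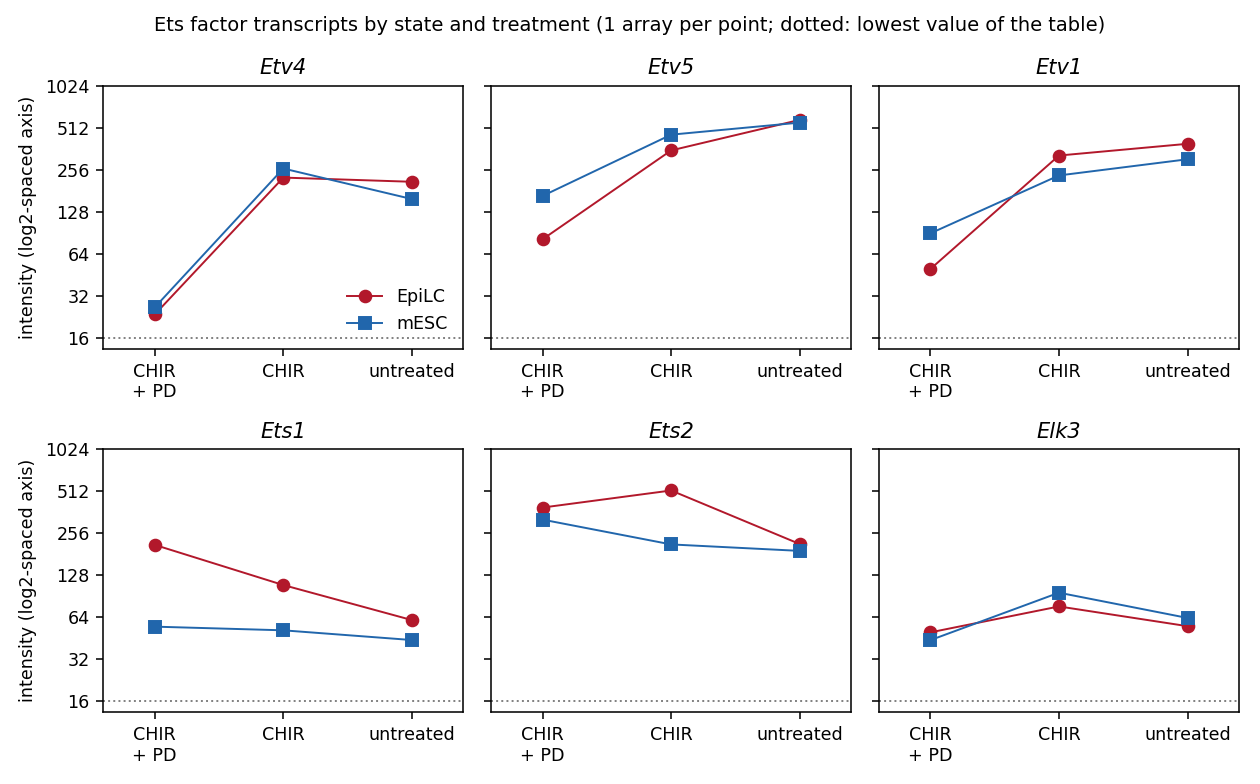
Intensity of each Ets factor (mean of log2 values per symbol, log2-spaced axis) on the 6 arrays, 1 point per array, with EpiLC as circles and mESC as squares and lines joining the treatments of a state. Etv4, Etv5 and Etv1 were lowest on both arrays with CHIR and PD, Ets1 was highest on the EpiLC array with CHIR and PD, and Ets2 was highest on the EpiLC array with CHIR.

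PD added to CHIR shows which of these factors differed when MEK was inhibited while beta-catenin was stabilised. In EpiLC these arrays also differed in summed streak and mesoderm markers (1365 with CHIR and PD, 17217 with CHIR). The part of this change of cell state in the differences below was not tested. All 3 PEA3 transcripts were at least 2-fold lower with PD in both states, and Etv4 fell past the threshold over all genes. Etv4, which acts downstream of FGF signals in many embryonic tissues, was at 23.6 with CHIR and PD and 226 with CHIR in EpiLC. In mESC it was at 26.5 with CHIR and PD and 262 with CHIR. Both arrays with PD placed Etv4 below their lower quartile (32.5 in EpiLC and 34.7 in mESC) and close to the lowest value of 16. The 4 arrays without PD lay between 158 and 262. The ratio was 9.56-fold in EpiLC and 9.88-fold in mESC (log2 -3.26 and -3.30). These sizes depend on the floor of the table, lying between -4.20 and -1.93 in EpiLC and between -4.10 and -2.06 in mESC over the alternative settings, so that their closeness in the 2 states cannot be read as an equal response. In a limma model with additive state and treatment effects, Etv4 fell by 3.28 (log2) with PD on top of CHIR (SE 0.19, limma adjusted p = 0.0205 over 22180 genes, lower in 2 of 2 states). Called genes were 4 of 22180 in this comparison (0.018%), all of them lower, and 1 of the 6 factors was among them.

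Etv5, which in the mouse is needed for self-renewal of spermatogonial stem cells, was at 81.6 with CHIR and PD and 353 with CHIR in EpiLC, and at 167 with CHIR and PD and 458 with CHIR in mESC. Etv1, a factor that also specifies classes of neurons, was at 49.97 with CHIR and PD and 325 with CHIR in EpiLC, and at 90.0 with CHIR and PD and 234 with CHIR in mESC. For both genes each array with PD lay under each array without it, as also for Elk3. How many of all genes had this order was not counted. The fitted log2 differences were -1.79 for Etv5 (SE 0.26, limma adjusted p = 0.444) and -2.04 for Etv1 (SE 0.33, limma adjusted p = 0.47), so neither passed the threshold over all genes, and both were lower in 2 of 2 states. Ranked by the fitted difference, Etv4 was in place 4 from the lowest of 22180 genes, Etv1 in place 20 and Etv5 in place 32.

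The response of Etv1 and Etv5 was larger in EpiLC than in mESC on the averaged values. Etv1 had a log2 difference of -2.70 in EpiLC and -1.38 in mESC, and Etv5 one of -2.11 in EpiLC and -1.46 in mESC. With 1 array per group this difference between states, -1.32 for Etv1 and -0.66 for Etv5, could not be tested. It enters the residual of the fit, whose SD was 0.52 for Etv1 and 0.39 for Etv5, against 0.25 for Etv4.

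Each of these 2 genes was measured by 2 probes, called brighter and dimmer by their highest value, which gave unequal sizes. The brighter Etv5 probe was at 50.4 with CHIR and PD and 630.5 with CHIR in EpiLC, and at 141 with CHIR and PD and 893 with CHIR in mESC. The dimmer Etv5 probe was at 132 with CHIR and PD and 198 with CHIR in EpiLC, and at 197 with CHIR and PD and 235 with CHIR in mESC. Both probes were lower with PD in both states, but the log2 difference was -3.65 in EpiLC and -2.66 in mESC on the brighter probe, and -0.58 in EpiLC and -0.26 in mESC on the dimmer one. The brighter Etv1 probe was at 29.9 with CHIR and PD and 572 with CHIR in EpiLC, and at 120.5 with CHIR and PD and 374 with CHIR in mESC. The dimmer Etv1 probe was at 83.4 with CHIR and PD and 184 with CHIR in EpiLC, and at 67.2 with CHIR and PD and 146 with CHIR in mESC. The larger response of Etv1 in EpiLC was thus carried by the brighter probe (-4.26 in EpiLC and -1.63 in mESC), whereas the dimmer probe gave nearly equal values (-1.14 in EpiLC and -1.12 in mESC). With the brightest probe in place of the mean, the fitted difference was -3.15 for Etv5 (SE 0.40, limma adjusted p = 0.335) and -2.95 for Etv1 (SE 0.63, limma adjusted p = 0.614).

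**Figure D2:**
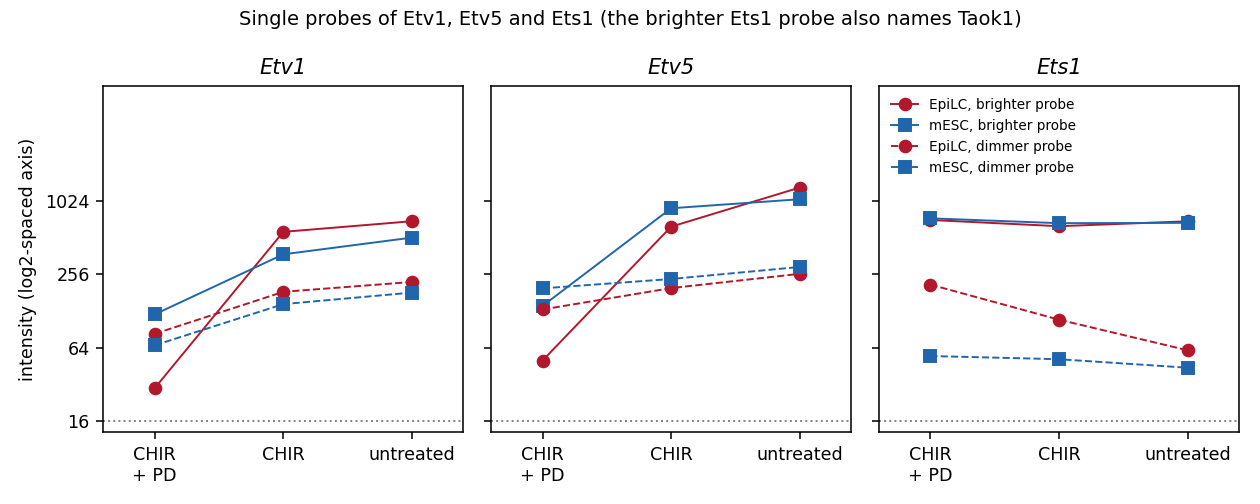
Intensity (log2-spaced axis) of single probes of Etv1, Etv5 and Ets1 by treatment, with the probe of the higher maximum (brighter) as a solid and the other (dimmer) as a dashed line, 1 point per array. The brighter probes of Etv1 and Etv5 spanned 23.4-fold and 26.2-fold over the 6 arrays and the dimmer ones 3.31-fold and 2.23-fold, and the brighter Ets1 probe, which also names Taok1 and was not used, spanned 1.16-fold.

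The other 3 factors did not pass the threshold with PD, and their directions differed. Elk3 was at 49.9 with CHIR and PD and 76.6 with CHIR in EpiLC, and at 43.9 with CHIR and PD and 96.0 with CHIR in mESC, the lower value being with PD in both states. Its fitted log2 difference was -0.87 (SE 0.16, limma adjusted p = 0.605), and all 6 values were between 43.9 and 96.0. Ets1 was at 211 with CHIR and PD and 109 with CHIR in EpiLC, and at 54.9 with CHIR and PD and 51.6 with CHIR in mESC (fitted log2 difference 0.52, SE 0.33, limma adjusted p = 0.857). Ets2 was at 391 with CHIR and PD and 518 with CHIR in EpiLC, and at 320.5 with CHIR and PD and 213 with CHIR in mESC, so the 2 states differed in direction (fitted log2 difference 0.09, SE 0.28, limma adjusted p = 0.972). Of the 6 factors, 3 in EpiLC and 4 in mESC were at least 2-fold lower with PD, where 1.01% of all genes in EpiLC and 0.523% in mESC were. As the factors were chosen with earlier results of these data known, this excess is a description and no test. The fourth in mESC was Elk3, and 0 factors were at least 2-fold higher in either state (1.04% of all genes in EpiLC and 0.252% in mESC). The median log2 difference of the 6 factors was -1.37 in EpiLC and -1.25 in mESC, beside -0.015 in EpiLC and -0.011 in mESC over all genes. On the EpiLC array with CHIR and PD, 4 of 9 naive markers (Klf2, Tfcp2l1, Nr0b1 and Nanog) were at least 2-fold higher than with CHIR, while 0 of 9 were in mESC, and the part of this shift in the low PEA3 values was not tested. The call of Etv4 was lost without the EpiLC array with CHIR and PD (limma adjusted p = 0.0885), without moderation of the variances (0.865) and with another constant under the logarithm, where its log2 difference moved to between -4.15 and -1.996.

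**Figure D3:**
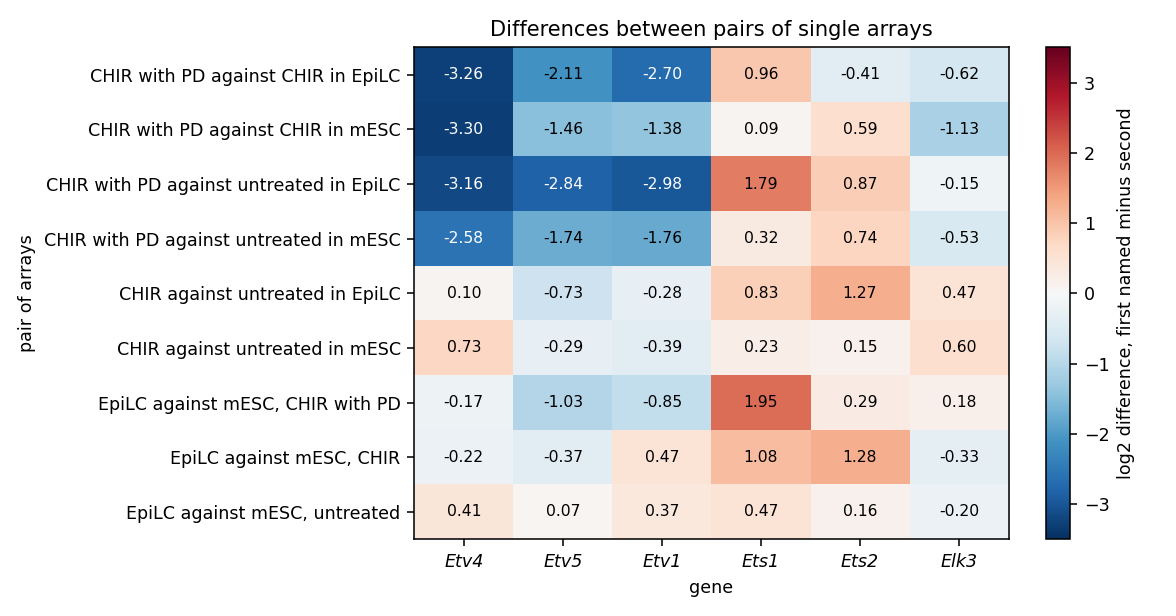
Log2 difference of each Ets factor for 9 pairs of single arrays, the first named minus the second, with blue for lower and red for higher and 1 array on each side. The 3 PEA3 genes lay between -3.30 and -1.38 in the 4 pairs that set CHIR with PD against CHIR or against untreated cells, and the largest positive value was 1.95 for Ets1 in EpiLC against mESC under CHIR with PD.

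CHIR with PD was also set against untreated cells, a comparison that shares the arrays with both inhibitors with the one above. Etv4 was at 23.6 with CHIR and PD and 211 without treatment in EpiLC, and at 26.5 with CHIR and PD and 158 without treatment in mESC. It fell by 2.87 in log2 terms (SE 0.19, limma adjusted p = 0.033), 1 of 6 called genes among 22180 (0.0271%). Etv5 was at 81.6 with CHIR and PD and 584 without treatment in EpiLC, and at 167 with CHIR and PD and 559 without treatment in mESC. Its log2 difference was -2.84 in EpiLC and -1.74 in mESC, and the fitted value was -2.29 (SE 0.26, limma adjusted p = 0.091). Etv1 was at 49.97 with CHIR and PD and 394 without treatment in EpiLC, and at 90.0 with CHIR and PD and 305 without treatment in mESC, with a fitted value of -2.37 (SE 0.33, limma adjusted p = 0.115). At least 2-fold lower were 3 of 6 factors in each state, all PEA3 genes, beside 1.49% of all genes in EpiLC and 0.848% in mESC. Ets1 was the 1 factor at least 2-fold higher, in EpiLC, where 2.62% of all genes were, and 0 factors were in mESC (0.618% of all genes). The call of Etv4 was lost when the EpiLC array with CHIR and PD or either untreated array was left out (limma adjusted p between 0.0547 and 0.281), when dim genes were left out (0.0527), without moderation (0.495), and with another constant, where its log2 difference moved to between -3.71 and -1.66.

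CHIR alone was set against untreated cells to ask what GSK3 inhibition does by itself, and each PEA3 transcript differed by less than 2-fold in both states on averaged values. The brighter Etv5 probe alone was more than 2-fold lower in EpiLC, at 630.5 with CHIR and 1320 without treatment (log2 -1.07). The CHIR arrays are the same ones that PD was compared with above. Etv4 was at 226 with CHIR and 211 without treatment in EpiLC and at 262 with CHIR and 158 without treatment in mESC, a log2 difference of 0.10 in EpiLC and 0.73 in mESC. Etv5 was at 353 with CHIR and 584 without treatment in EpiLC and at 458 with CHIR and 559 without treatment in mESC, and Etv1 was at 325 with CHIR and 394 without treatment in EpiLC and at 234 with CHIR and 305 without treatment in mESC. Etv5 and Etv1 were thus lower with CHIR in both states while Etv4 was higher in both. The fitted values were 0.41 for Etv4 (SE 0.19), -0.51 for Etv5 (SE 0.26) and -0.33 for Etv1 (SE 0.33). The 3 other factors were higher with CHIR in both states, with fitted values of 0.53 for Ets1 (SE 0.33), 0.71 for Ets2 (SE 0.28) and 0.54 for Elk3 (SE 0.16). No gene of 22180 passed the threshold in this comparison in limma (0%), 1613 had an unadjusted p under 0.05 (7.27%), and the adjusted p of the 6 factors lay between 0.634 and 0.865. Leaving out 1 array moved the fitted CHIR values to between 0.01 and 1.05 for Ets1, 0.18 and 1.24 for Ets2, 0.37 and 0.70 for Elk3, 0.11 and 0.71 for Etv4, -0.89 and -0.12 for Etv5, and -0.69 and 0.02 for Etv1, with 0 of them past the threshold. The smallest sizes of Ets1 and Etv5 came without untreated EpiLC, the smallest of Ets2 without EpiLC with CHIR, and the sign of Etv1 turned without mESC with CHIR. As a check of CHIR, all 10 Wnt feedback targets measured were higher with CHIR in both states, 6 of them at least 2-fold in EpiLC and 5 in mESC. Of these 10, 2 were called in EpiLC against mESC, where 8.3% of all genes were. Lef1 rose by 1.62 (SE 0.19) and Tnfrsf19 by 1.04 (SE 0.13), at limma adjusted p-values of 0.00901 and 0.0111.

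Ets2, an Ets factor that in the mouse is needed for trophoblast development, had its highest value in EpiLC with CHIR. It was at 518 there and at 214 in untreated EpiLC, but at 213 with CHIR and 191 without treatment in mESC. Its CHIR response was 1.27 in EpiLC and 0.15 in mESC on the log2 scale, and Ets2 was the 1 factor of 6 that was at least 2-fold higher in EpiLC (1.77% of all genes were), while 0 of 6 were in mESC (0.185% of all genes). The same EpiLC array had the high summed level of streak and mesoderm markers given above. Trophoblast markers summed to 3959 with CHIR and PD, 2123 with CHIR and 1140 without treatment in EpiLC, and to 4740 with CHIR and PD, 2774 with CHIR and 2642 without treatment in mESC. The part of either marker group in the level of Ets2 was not tested.

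EpiLC were set against mESC to ask whether the factors mark the state itself. In the untreated pair, 0 of 3 PEA3 transcripts differed by 2-fold, and only EpiLC had added bFGF. Etv4 was at 211 in EpiLC and 158 in mESC, Etv5 at 584 in EpiLC and 559 in mESC, and Etv1 at 394 in EpiLC and 305 in mESC. On averaged values all 3 were higher in EpiLC, by between 0.07 and 0.41 on the log2 scale. The 2 Etv5 probes differed in direction, at 0.32 on the brighter and -0.19 on the dimmer one. In this pair 0 of 6 factors differed 2-fold or more, beside 3.76% of all genes. Under CHIR without PD, Etv4 and Etv5 were lower in EpiLC than in mESC (log2 -0.22 and -0.37), and Etv1 was higher (0.47). Under CHIR with PD all 3 averaged values were lower in EpiLC, with Etv5 at 81.6 in EpiLC and 167 in mESC. Etv1 was at 49.97 in EpiLC and 90.0 in mESC, and Etv4 at 23.6 in EpiLC and 26.5 in mESC. On the brighter probes this gap was -1.49 for Etv5 and -2.01 for Etv1. The dimmer Etv1 probe went the other way, at 83.4 in EpiLC and 67.2 in mESC. Over the 3 treatments, fitted state differences were 0.01 for Etv4 (SE 0.15), -0.45 for Etv5 (SE 0.21) and 0.00 for Etv1 (SE 0.27), with limma adjusted p-values between 0.28 and 0.998. In this comparison 8.3% of all genes were called and 0 of the 6 factors were, with 2 of them, Ets1 and Ets2, at an unadjusted p under 0.05 (24% of all genes).

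Ets1, known from lymphoid and endothelial cells, was the factor with the largest state difference. It was at 211 in EpiLC and 54.9 in mESC under CHIR with PD, at 109 in EpiLC and 51.6 in mESC under CHIR, and at 61.1 in EpiLC and 44.0 in mESC without treatment. EpiLC were higher in each of the 3 pairs. Neighbouring EpiLC values lay 0.96 and 0.83 apart on the log2 scale, and neighbouring mESC values 0.09 and 0.23. The residual SD of 0.52 comes from these same 6 values and is no error of a single array. The fitted state difference was 1.17 (SE 0.27, limma adjusted p = 0.06), short of the threshold, and it passed with median centring (adjusted p = 0.0471) or without either untreated array (0.0448). It was 0.78 without either array with CHIR and PD (adjusted p = 0.075), and its adjusted p was 0.113 without either array with CHIR, 0.124 with a constant of 64 and 0.393 without moderation. Of 11 endothelial and blood markers, 0 rose and 2 fell in EpiLC. Pecam1 fell by 2.83 (SE 0.21, limma adjusted p = 0.00326) and Tek fell by 0.58 (SE 0.11, limma adjusted p = 0.0301). Kdr was the 1 marker at least 2-fold higher in EpiLC, at 103 in EpiLC and 51.2 in mESC under CHIR and at 43.5 in EpiLC and 46.4 in mESC under CHIR with PD, where Ets1 was highest. Cdh5, Tie1, Emcn and Ptprc were between 23.8 and 80.0 on all 6 arrays. A second probe, listed for both Taok1 and Ets1, was flat between 636 and 738 and was left out by the rule on symbols. With that probe averaged in, the state difference of Ets1 was 0.57 (limma adjusted p = 0.0829). Elk3 was at 49.9 in EpiLC and 43.9 in mESC under CHIR with PD, at 76.6 in EpiLC and 96.0 in mESC under CHIR, and at 55.3 in EpiLC and 63.3 in mESC without treatment (fitted difference -0.11, SE 0.13). Ets2 was higher in EpiLC in all 3 pairs, at least 2-fold under CHIR, with a fitted difference of 0.58 (SE 0.23, limma adjusted p = 0.206). At least 2-fold apart were Ets1 and Ets2 under CHIR (5.08% of all genes) and Ets1 and Etv5, in opposite directions, under CHIR with PD (6.39% of all genes).

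The order of the 6 arrays summarises each gene. The residual SD beside the gaps is the departure from additive effects on these same arrays, not the spread of repeated arrays. A gap above it is not a tested difference. For Etv4 the 2 arrays with PD were lowest and lay 0.17 apart on the log2 scale, less than the residual SD of 0.25, and a gap of 2.58 separated them from the next array. For Etv5 the gap above the 2 arrays with PD was 1.08 and for Etv1 it was 1.38, and within these pairs EpiLC lay below mESC by 1.03 for Etv5 and 0.85 for Etv1, both larger than the residual SD. Among the 4 arrays without PD, neighbouring levels of Etv5 and of Etv1 did not differ by more than the residual SD, while for Etv4 untreated mESC lay 0.41 below untreated EpiLC, more than its residual SD. Ets2 had 1 gap above its residual SD of 0.43, between 320.5 in mESC with CHIR and PD and 214 in untreated EpiLC.

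Each factor that spanned at least 2 on the log2 scale was also matched to the genes nearest to it in pattern. Likeness was the root mean square difference between log2 profiles centred on their mean, over 6 arrays that also share their normalization and floor, among 17490 named genes. Nearest to Etv4 were Dusp4 (0.44) and Dusp6 (0.52), dual-specificity phosphatases that act on MAP kinases, and Etv1 (0.58). Nearest to Etv1 were Etv5 (0.29), Tor3a (0.33) and Dusp6 (0.45). Nearest to Etv5 were Etv1 (0.29), Spry2, a Sprouty inhibitor of receptor signalling (0.34), and Myc (0.39). Nearest to Ets1 were Man2a1 (0.09), Rdh10 (0.11) and Dach1 (0.12), each highest in EpiLC with CHIR and PD. Man2a1 was at 656, 371 and 217 in EpiLC with CHIR and PD, with CHIR and without treatment, and at 170, 172 and 131 in the same order in mESC. Ets2 and Elk3 spanned less than 2 on the log2 scale, and their nearest genes are not given.

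**Figure D4:**
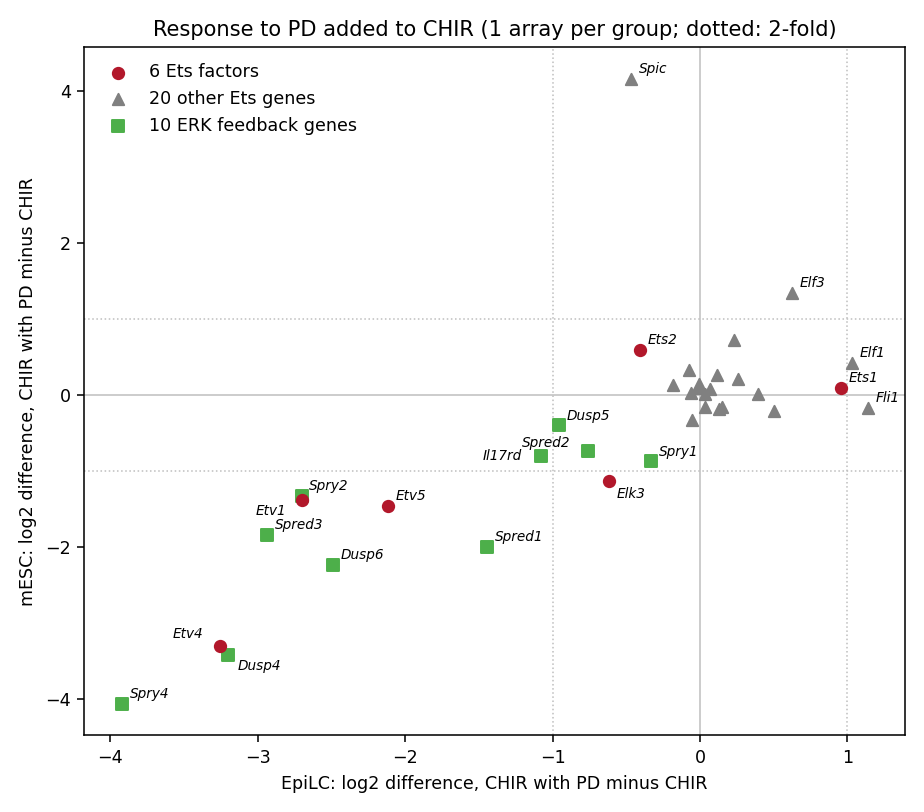
Log2 difference of CHIR with PD minus CHIR in EpiLC (horizontal) and mESC (vertical) for the 6 Ets factors (circles), 20 other Ets genes (triangles) and 10 ERK feedback genes (squares), 1 array per group, dotted lines at 2-fold. Etv4, Etv5 and Etv1 lay among the feedback genes at the lower left, and 0 of the other 20 Ets genes was at least 2-fold lower in either state.

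Feedback inhibitors of ERK signalling, which the pathway induces to limit itself, were low on the same arrays. All 10 ERK feedback genes measured were lower with PD added to CHIR in both states (median -1.97 in EpiLC and -1.59 in mESC), 7 of them at least 2-fold in EpiLC and 6 in mESC. Of these 10, 3 fell past the threshold over all genes, namely Spry4, a Sprouty inhibitor (-3.99, SE 0.12, limma adjusted p = 0.0025), Dusp4 (-3.31, SE 0.13, limma adjusted p = 0.00522) and Dusp6 (-2.36, SE 0.13, limma adjusted p = 0.0205). The 3 and Etv4 were the 4 genes called in this comparison. In EpiLC against mESC, where 8.3% of all genes were called, Spry4 fell by 0.79 (SE 0.10), Dusp4 rose by 0.82 (SE 0.11) and Dusp6 rose by 0.60 (SE 0.11). Their limma adjusted p-values lay between 0.0118 and 0.0308, so the state difference of these feedback genes had no single direction. Spry2 was at 68.6 with CHIR and PD and 446 with CHIR in EpiLC and at 290.3 with CHIR and PD and 731 with CHIR in mESC, a larger ratio in EpiLC as for Etv1 and Etv5, and Spred3 was at 120 with CHIR and PD and 915 with CHIR in EpiLC and at 99.1 with CHIR and PD and 356 with CHIR in mESC.

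Of 20 other Ets genes measured, 0 passed the threshold with PD, 14 had values above 0 and 6 below in the fit, and the median was 0.09 in each state. Higher by at least 2-fold were Fli1 (395 with CHIR and PD and 180 with CHIR) and Elf1 (248 and 121 in the same order) in EpiLC, and Elf3 (669.9 with CHIR and PD and 265 with CHIR) and Spic (1638 and 91.5) in mESC. Spic was at 785 in untreated mESC, from which CHIR differed by -3.10 and CHIR with PD by 1.06 (log2). Elf3, an epithelial Ets factor, and Etv2, a factor of blood and endothelial progenitors, were the 2 of 20 called in the state comparison, a share near the 8.3% of all genes, Elf3 falling in EpiLC by 1.67 (SE 0.26, limma adjusted p = 0.0201) and Etv2 rising by 0.71 (SE 0.11, limma adjusted p = 0.0204). Elf4 was at 337 with CHIR and PD, 287 with CHIR and 195 without treatment in EpiLC, and at 518, 315 and 269 in the same order in mESC.

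Among transcripts of the pathway above the PEA3 genes, 0 passed the threshold with PD. Only 0.018% of all genes did, so 0 calls in a short list are no sign of unchanged transcripts. Cic, which encodes Capicua, was at 263 with CHIR and PD and 182 with CHIR in EpiLC and at 311 with CHIR and PD and 249.8 with CHIR in mESC (fitted log2 difference 0.43, SE 0.13, limma adjusted p = 0.814). Of the 3 genes of Capicua and its ataxin partners and of 6 measured genes of the COP1 ligase, 0 passed the threshold with PD. In the state comparison 8.3% of all genes were called. There Trib1, a pseudokinase that binds COP1, rose in EpiLC by 1.09 (SE 0.14, limma adjusted p = 0.0111) and Cul4a rose by 0.69 (SE 0.10, limma adjusted p = 0.0166). Of 10 measured genes of the Ras to ERK chain 0 passed with PD. In the state comparison 1 of the 10 was called, a share near that of all genes. This was the phosphatase gene Ptpn11, which rose in EpiLC by 0.49 (SE 0.10, limma adjusted p = 0.0396). Among 11 FGF ligand and receptor genes 0 passed with PD. By at least 2-fold, 2 were higher and 1 lower in EpiLC, and 1 was higher and 0 lower in mESC. Fgfr2 was at 117 with CHIR and PD and 44.6 with CHIR in EpiLC. In mESC it was at 177 and 78.3 in the same order (fitted 1.285, SE 0.16, limma adjusted p = 0.367). Fgf5 was at 39.4 with CHIR and PD and 770 with CHIR in EpiLC (fitted -2.56, SE 0.94, limma adjusted p = 0.843). In EpiLC against mESC Fgf8 rose by 2.97 (SE 0.46). Fgf4, Fgfr2 and Fgfr3 fell by 2.96 (SE 0.55), 0.84 (SE 0.13) and 0.47 (SE 0.10). Limma adjusted p-values of these state differences lay between 0.0198 and 0.0486. Of 12 immediate early genes 0 passed with PD, with a median of -0.20 in EpiLC and 0.06 in mESC. Egr1 was nevertheless at 32.1 with CHIR and PD and 276 with CHIR in EpiLC and at 25.7 and 87.6 in the same order in mESC (fitted -2.43, SE 0.33, limma adjusted p = 0.367), and Myc was at 150.4 with CHIR and PD and 276 with CHIR in EpiLC and at 170 with CHIR and PD and 439 with CHIR in mESC. Srf, which encodes the partner of Elk3 on DNA, rose by 0.64 in EpiLC against mESC (SE 0.11, limma adjusted p = 0.0229). It was the 1 of 12 immediate early genes called between the states, again near the share of all genes.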

How the data were processed

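RNA from 6 cultures was measured on Affymetrix arrays (Mouse Gene 2.0 ST) and analysed by the authors in GeneSpring GX 11.5, per the series' design text. The deposited values are linear intensity values that the authors had normalized. Their method and a genome build are not given in the sources used here. Of 33793 probes, 23521 had 1 gene symbol, and their log2 intensities were averaged into 22180 genes, with no filter. Platform symbols were kept, as 0 differed from RefSeq through the Entrez identifier for 23328 probes.

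An additive model of state and treatment was fitted with limma 3.58.1 in R 4.3.3 (lmFit, eBayes), with 2 residual degrees of freedom. Its error is the departure from additive effects, and labels do not say how cultures were separated. P-values were two-sided and adjusted by Benjamini-Hochberg over all genes, with a threshold of 0.05. Other comparisons set 1 array against 1 array, counting 2-fold differences. Tested on simulated data with 200 changed genes, the fit recovered 25.5% of 2-fold and 93.6% of 4-fold changes for PD added to CHIR. In the simulation each changed gene changed equally in both states, which real genes need not do. These shares are therefore not those of the real fit, where Etv1 at a log2 difference of -2.04 was not called.

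Members and lists were chosen with earlier results of these data known. All members were named, with pathway genes past the threshold, the widest-ranging of each list where a comparison turned on them, and the 3 genes nearest in profile to each member spanning at least 2 on the log2 scale. Marker lists are mostly given as counts and sums. Alternatives were the constant under the logarithm, scaling, a filter on dim genes, probe choice, moderation and each array left out.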

Additional observations from a re-analysis of the deposited data

Results flagged for a closer look

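Ets2 responded to PD added to CHIR in opposite directions in the 2 states, with a log2 difference of -0.41 in EpiLC and 0.59 in mESC. With 1 array per group the difference was not tested. The residual SD of Ets2 in the additive fit, 0.43, is made up of such departures.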

How the results depend on the processing

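No paired analysis was possible because the labels give no replicate numbers that groups share, each group being 1 array, and the additive model already compares treatments within a state. With 1 array left out, 1 residual degree of freedom remained, and a treatment left with 1 array was assumed to vary like the others. Values close to the lowest of 16 limit Etv4 under PD. They also limit the brighter Etv1 probe in EpiLC with CHIR and PD, at 29.9 where the lower quartile was 32.5. Ets1 in mESC (44.0 to 54.9) and Elk3 (43.9 to 96.0) were dim too, below or around the array medians of 60.5 to 65.2. In the alternatives, 0 calls of a factor changed direction. Of PD added to CHIR, 1 factor and 4 genes were called. Factors called were 0 with a constant of 4 and of 64 over the floor and without moderation, and between 0 and 3 with 1 array left out. Genes called were 1 with a constant of 64, 7 with trend and robust moderation, 1 without moderation, and between 3 and 71 with 1 array left out. Without the mESC array with CHIR and PD, Etv1, Etv4 and Etv5 all passed (limma adjusted p = 0.00895, 0.012 and 0.0277), with 71 genes called, and without the mESC array with CHIR 54 genes were. For CHIR with PD against untreated cells (1 factor, 6 genes), factors called were 0 with either constant, with dim genes left out and without moderation, 2 with trend and robust moderation, and between 0 and 3 with 1 array left out. Genes called were 1 with either constant, 53 with trend and robust moderation, 1 without moderation, and between 0 and 152 with 1 array left out. Etv1, Etv4 and Etv5 were all called without the EpiLC array with CHIR, the mESC array with CHIR or the mESC array with CHIR and PD. For EpiLC against mESC (0 factors, 1841 genes), 1 factor, Ets1, was called with median centring and between 0 and 1 with 1 array left out, and genes called were 1016 with a constant of 4, 0 without moderation and between 945 and 1276 with 1 array left out. For CHIR against untreated cells (0 genes), between 0 and 52 genes were called with 1 array left out, 52 of them without the mESC array with CHIR, and 0 factors in each case.

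In pairs of arrays, factors that differed 2-fold were 1 and not 2 for EpiLC against mESC under CHIR with PD with a constant of 64, with median centring and with probes of several symbols, and 1 and not 2 under CHIR with a constant of 64 and with such probes. For CHIR in EpiLC they were 2 and not 1 with the brightest probe, which added Etv5. Responses that differed 2-fold between states were 0 and not 1 (Ets2) for CHIR with a constant of 64. For PD added to CHIR they were 2 and not 1 (Etv1) with a constant of 4, with quantile normalization and with median centring, and 0 with a constant of 64, and for CHIR with PD against untreated cells 1 and not 3 with a constant of 64. Genes at least 2-fold apart with PD added to CHIR were 455 in EpiLC and 172 in mESC, 894 and 425 with a constant of 4, and 255 and 73 with a constant of 64. For CHIR they were 598 in EpiLC and 75 in mESC, 1013 and 300 with a constant of 4, and 343 and 27 with a constant of 64. For CHIR with PD against untreated cells they were 911 in EpiLC and 325 in mESC, 1532 and 681 with a constant of 4, and 511 and 157 with a constant of 64. For EpiLC against mESC they were 1418 under CHIR with PD, 1127 under CHIR and 835 without treatment, and 804, 663 and 447 with a constant of 64, with 2236 under CHIR with PD for a constant of 4.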
